A study of Homo sapiens with 4 samples.

Results

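Vimentin (VIM), nestin (NES), synemin (SYNM), the nuclear lamins (LMNA, LMNB1, LMNB2) and plectin (PLEC) were examined in lung adenocarcinoma (LAD) cells with constitutively active AKT1. These 7 genes were taken by symbol, as non-keratin intermediate filament genes plus the linker that ties filaments together, from 60558 Ensembl gene identifiers per library. A549 and HCC827, both established human LAD cell lines, had been transduced with myr-AKT1, an AKT1 held at the membrane by a myristoylation signal, or with the vector alone. Each of the resulting 4 cultures (A549-vector, A549-myr-AKT1 and the same pair for HCC827) gave 1 RNA-seq library, so differences within a line have no replicate check, and neither the labels nor the methods say whether the transduced cells were pools or clones.

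Intermediate filaments are built from coiled-coil proteins that assemble into flexible ropes. Vimentin is the filament protein of mesenchymal cells and is often gained by carcinoma cells, while nestin and synemin are large partners that enter filaments together with vimentin or a related protein. Plectin is a giant cytolinker that joins filaments to each other, to actin and to adhesions. The lamins are the intermediate filament proteins of the nucleus and form a meshwork under its inner membrane. LMNA gives lamin A and lamin C by splicing, which the gene-level values here cannot separate, and LMNB1 and LMNB2 give the B-type lamins, which stay anchored in the membrane by a lipid tail.

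The recovered reads per library ranged from 16322183 to 33530317. The deposited values are normalized counts, that is, read counts divided by 1 size factor per library that was set within each line, and they can be compared between the 2 libraries of a line. AKT1 had 4243 normalized counts in A549-vector and 6297 in A549-myr-AKT1 cells, and 2175 and 4805 in the corresponding HCC827 libraries, with reads of the construct and the endogenous gene counted together. CDKN2A, whose locus A549 cells lack, had 0 reads in both A549 libraries and 4344 and 2055 in the HCC827 libraries. EGFR, which is amplified in HCC827 cells, had 153714 normalized counts in HCC827-vector against 7500 in A549-vector cells. As these values are scaled within each line, the EGFR difference between the lines is only rough. Of 13 stromal, endothelial and leukocyte markers, between 2 and 5 had no read in a library, and their normalized counts summed to 359 (vector) and 1778 (myr-AKT1) in the A549 libraries and to 140 and 323 in those of HCC827, and their part in the results was not tested.

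The clearest difference lay in the B-type lamins. LMNB1 (ENSG00000113368, chromosome 5, 126776623 to 126837020, plus strand, GRCh38) had 3051 normalized counts with vector and 680 with myr-AKT1 in A549 cells, and 3710 and 906 in HCC827 cells. The myr-AKT1 library was the lower one in both lines, by 4.49-fold in A549 and 4.09-fold in HCC827 cells. LMNB2 (ENSG00000176619, chromosome 19, 2427638 to 2456959, minus strand) had 5251 and 1516 normalized counts in A549-vector and A549-myr-AKT1 cells, and 4411 and 1978 in the HCC827 libraries, and was thus 3.46-fold and 2.23-fold lower with myr-AKT1. Log2 fold changes of myr-AKT1 over vector were -2.17 for LMNB1 in A549 (95% counting interval from -2.29 to -2.04) and -2.03 (-2.15 to -1.92) in the other line, and for LMNB2 they were -1.79 (-1.88 to -1.71) and -1.16 (-1.24 to -1.08). The intervals, exact by the Clopper-Pearson method, hold the counting error of the reads and nothing of how cultures vary. In RNA of whole cultures, fewer cells of a kind and less RNA per cell cannot be told apart.

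The sequences upstream of the starts of LMNB1 and LMNB2, the 2 of the 7 genes past 2-fold in both lines, are shown with that of VIM, which stayed within 2-fold in both. They are the 250 bases before the RefSeq start (GRCh38.p14), read in the direction of transcription, at chr5:126776886-126777135 (plus strand) for LMNB1, chr19:2456960-2457209 (minus strand) for LMNB2 and chr10:17227991-17228240 (plus strand) for VIM. LMNB1 has 2 RefSeq starts, and the one used is the start of the canonical transcript. Its window lies inside the annotated gene, which begins at 126776623. Capitals mark matches to any of 5 motifs, searched on both strands.
LMNB1: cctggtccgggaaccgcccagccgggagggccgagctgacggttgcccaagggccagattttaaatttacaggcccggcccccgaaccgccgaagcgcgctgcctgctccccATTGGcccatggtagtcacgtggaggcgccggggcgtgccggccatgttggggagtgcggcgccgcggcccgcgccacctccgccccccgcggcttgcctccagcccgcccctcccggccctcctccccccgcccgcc
LMNB2: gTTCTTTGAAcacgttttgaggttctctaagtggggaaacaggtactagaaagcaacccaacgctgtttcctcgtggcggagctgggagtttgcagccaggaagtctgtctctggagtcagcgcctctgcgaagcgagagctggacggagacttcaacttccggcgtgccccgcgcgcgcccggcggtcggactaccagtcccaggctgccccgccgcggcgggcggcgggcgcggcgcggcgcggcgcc
VIM: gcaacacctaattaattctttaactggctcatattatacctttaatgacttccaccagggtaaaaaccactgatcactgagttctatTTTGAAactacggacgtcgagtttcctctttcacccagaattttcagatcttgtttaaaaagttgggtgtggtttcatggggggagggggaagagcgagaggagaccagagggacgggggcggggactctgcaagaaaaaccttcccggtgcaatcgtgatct
The motifs were the CCAAT box (CCAAT), the cell cycle homology region or CHR (TTTGAA), the E2F site (TTTCCCGC, TTTGGCGC, TTTCGCGC or TTTGCCGC), the FOXO site (GTAAACA) and the STAT site (TTCNNNGAA), and 32.0%, 13.3%, 2.79%, 2.98% and 6.57% of 35116 human promoter windows of this length held them. LMNB1 held 1 CCAAT box, on the minus strand, as did the window of SYNM. LMNB2 held a STAT match in which a CHR match lies, and VIM held 1 CHR match. None of the 3 windows held the E2F or FOXO letters. Such a match is a string of letters and not a binding site, and its absence says only that the letters are not in this window. The windows differ in base composition, with a GC content of 75.6% for LMNB1, 66.4% for LMNB2 and 46.0% for VIM.

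LMNA (ENSG00000160789, chromosome 1, 156082573 to 156140081, plus strand) had 5523 normalized counts in A549-vector and 4180 in A549-myr-AKT1 cells, and 7637 in HCC827-vector and 3143 in HCC827-myr-AKT1 cells. It was lower with myr-AKT1 in both lines, by little in A549 cells (log2 fold change -0.40, -0.46 to -0.34) and by more in HCC827 cells (-1.28, -1.34 to -1.22). The fold changes of the lines differed by 0.88 on the log2 scale for LMNA (counting interval of the HCC827 minus the A549 value -0.97 to -0.79) and by 0.13 for LMNB1, where the interval of -0.04 to 0.30 includes 0.

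SYNM (ENSG00000182253, chromosome 15, 99098217 to 99135593, plus strand) had 1767 and 1301 normalized counts in A549-vector and A549-myr-AKT1 cells, and 899 and 414 in the HCC827 libraries. Its log2 fold change was -0.44 (-0.55 to -0.34) in A549 and -1.12 (-1.30 to -0.94) in HCC827 cells, so that synemin, like LMNA, was lower in both lines and more so in HCC827.

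VIM (ENSG00000026025, chromosome 10, 17228241 to 17237593, plus strand), the most abundant of the 7 in A549 cells, had 84.2% of its vector level in A549-myr-AKT1 cells and 105% in HCC827-myr-AKT1 cells. By log2 fold change, 38.0% of the 18688 genes measured in A549 cells and 55.3% of the 17306 in HCC827 cells lay below it, which puts vimentin mRNA inside the bulk of genes in both. In A549 cells the log2 fold change of VIM was -0.25, and its counting interval of -0.28 to -0.22 excludes 0. Its 262 and 173 reads in the HCC827 libraries leave an interval of -0.22 to 0.35 around a log2 fold change of 0.06. PLEC (ENSG00000178209, chromosome 8, 143915153 to 143976734, minus strand) had 9884 and 10360 normalized counts in the A549 libraries and 4672 and 4590 in the HCC827 libraries, with log2 fold changes of 0.07 (0.03 to 0.11) and -0.03 (-0.09 to 0.03). Between 3648 and 11319 reads per library lie behind the PLEC values.

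NES (ENSG00000132688, chromosome 1, 156668763 to 156677407, minus strand) was rare in every library, with 81 (vector) and 39 (myr-AKT1) reads in A549 and 72 and 90 in HCC827 cells. These correspond to 70.7, 44.7, 57.2 and 113 normalized counts. With myr-AKT1, nestin was lower in A549 cells (log2 fold change -0.66, -1.25 to -0.10) and higher in HCC827 cells (0.98, 0.52 to 1.45). With size factors over all 4 libraries the A549 value was -0.56 and its interval, -1.15 to 0.01, included 0.

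**Figure D1:**
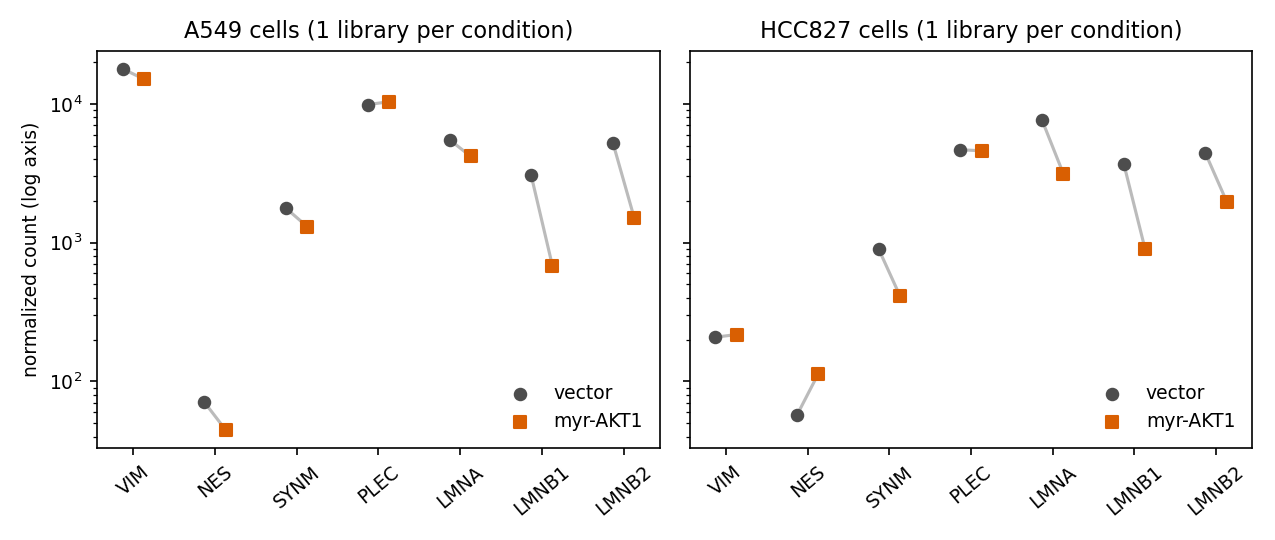
Normalized counts (log axis) of the 7 genes in vector cells (grey circles) and myr-AKT1 cells (orange squares) of each line, 1 library per point, with lines joining the libraries of a line. LMNB1 and LMNB2 drop steeply in both panels, and VIM and PLEC stay nearly level. VIM lies at 208 and 218 in HCC827 and at 17893 and 15060 in A549 cells. The counts are scaled within each line, so heights in the 2 panels compare only roughly.

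**Figure D2:**
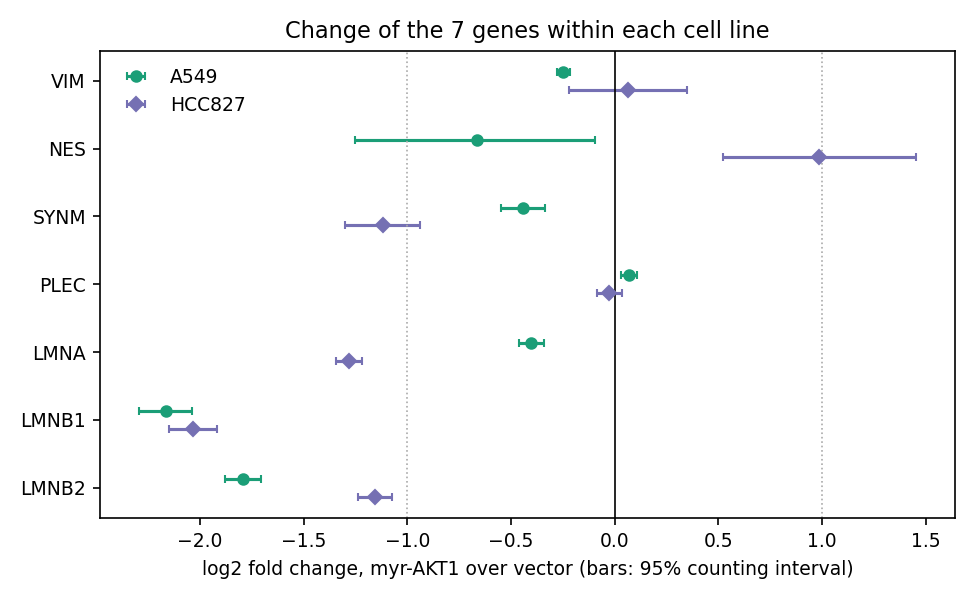
Log2 fold change of myr-AKT1 over vector for each gene in A549 (green circles) and HCC827 cells (violet diamonds), with bars for the 95% counting interval and dotted lines at a 2-fold change. Both B-type lamins lie beyond the dotted line at -1 in both lines, LMNA and SYNM in HCC827 cells only, and NES lies on opposite sides of 0.

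By a 2-fold threshold, 2 of the 7 genes were lower in A549-myr-AKT1 cells (LMNB1 and LMNB2), where 9.86% of the 18688 filtered genes (normalized counts averaging 10 or more, reads in both libraries) were, and 0 were higher, where 14.8% were. In HCC827 cells 4 of the 7 were lower by that threshold (LMNB1, LMNB2, LMNA and SYNM), where 12.5% of 17306 genes were, and 0 were higher, where 14.0% were. All 7 genes passed the filter on low values in both lines. The median log2 fold change over the 7 was -0.44 in A549 and -1.12 in HCC827 cells, beside -0.04 over all filtered genes in either line. An interval that excludes 0 is a weaker criterion at this depth. It was met downward by 6 of 7 genes in A549 (36.6% of all genes; 5 of 7, without NES, with size factors over all 4 libraries) and 4 of 7 in HCC827 cells (37.1%), and upward by PLEC in A549 (33.1%) and NES in HCC827 cells (33.4%).

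The only repeats of the contrast are the 2 lines. A limma fit, run on log2(normalized count + 1) and blocked by line, tested the mean difference over the 2 lines. This fit does not require a difference in each line for a call. Over 19314 genes it called 250 higher (1.29%) and 335 lower (1.73%), taking adjusted p-values (Benjamini-Hochberg) under 0.05, with 1 residual degree of freedom, where DESeq2's Wald test on the recovered reads called 621 and 518. Of the 7 genes, LMNB1 fell by 2.10 ± 0.250 (standard error) on the log2 scale, with limma's adjusted p = 0.00959, and was lower in 2 of 2 lines. LMNB2 fell by 1.47 ± 0.264, with limma's adjusted p = 0.0319, and was likewise lower in 2 of 2 lines. The call of LMNB2 was lost in edgeR's quasi-likelihood test (adjusted p = 0.0522) and with size factors over all 4 libraries (adjusted p = 0.0631 from limma), whereas that of LMNB1 held in both (0.0153 and 0.0290). With a pseudocount of 0.1, neither passed (adjusted p = 0.0669 for LMNB1 and 0.112 for LMNB2 from limma). LMNA had -0.84 (adjusted p = 0.170 from limma), SYNM -0.78 (0.211), VIM -0.09 (0.893), NES 0.16 (0.927) and PLEC 0.02 (0.977), and none of these 5 passed.

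How lamins stand to each other was read from the ratio of 2 genes within a library, which no scaling between libraries can change. The ratio of LMNB1 to LMNA reads was 0.552 in A549-vector and 0.163 in A549-myr-AKT1 cells, and 0.486 and 0.288 in the HCC827 libraries, log2 changes of -1.76 (counting interval -1.90 to -1.62) and -0.75 (-0.88 to -0.62). The ratio of LMNB2 to LMNA reads also dropped in A549 cells, from 0.951 to 0.363, but was 0.578 and 0.629 in HCC827 cells, where the log2 change of 0.12 had an interval of 0.02 to 0.23. LMNB1 was lower relative to LMNB2 in both lines, with log2 changes of -0.37 (-0.53 to -0.22) in A549 and -0.88 (-1.02 to -0.74) in HCC827 cells.

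Levels of different genes were compared per kilobase of merged exon, with size factors over all 4 libraries. The 3 lamin genes together had 2079 normalized counts per kilobase in A549-vector and 879 in A549-myr-AKT1 cells, and 3088 and 1153 in HCC827-vector and HCC827-myr-AKT1 cells. LMNA made up 27.2% of this sum in A549-vector and 52.3% in A549-myr-AKT1 cells, against 33.8% and 38.5% in the HCC827 libraries. With the length of the canonical transcript instead, the 4 shares were 44.3%, 70.0%, 51.8% and 57.2%, so the order within each line held while the level of the share depended on the length used. Bowtie2 does not place a read across an intron, which lowers the level per length of genes with many exons, and its part in the order of the genes was not tested.

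**Figure D3:**
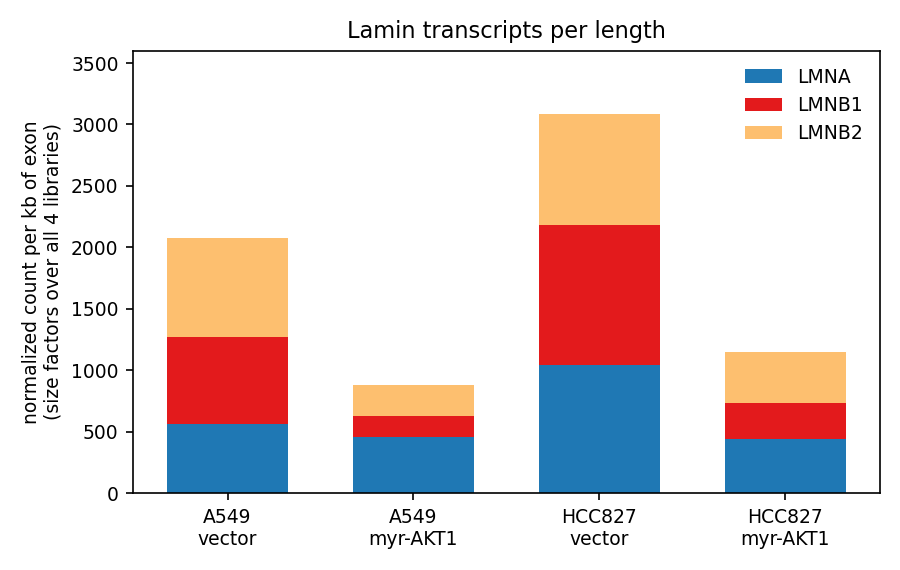
Lamin transcripts in each library as stacked bars of normalized counts per kilobase of exon, for LMNA (blue), LMNB1 (red) and LMNB2 (orange). The bars drop from 2079 to 879 in A549 and from 3088 to 1153 in HCC827 cells, and in A549 cells the blue part keeps most of its height while the red and orange parts shrink.

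On the same scale VIM had 2884 (vector) and 2606 (myr-AKT1) normalized counts per kilobase in A549 and 44.7 and 48.4 in HCC827 cells. Vimentin was 64.5-fold higher in A549-vector than in HCC827-vector cells, and both A549 libraries lay far above both HCC827 libraries. Per length, 98.8% of expressed genes lay below VIM in A549-vector and 40.6% in HCC827-vector cells. The other 6 genes differed between the vector libraries by less than 2-fold. LMNA was 1.84-fold and LMNB1 1.62-fold higher in HCC827-vector cells, PLEC was 1.59-fold and SYNM 1.47-fold higher in A549-vector cells, LMNB2 was 1.12-fold higher in HCC827-vector cells, and for NES the log2 difference of A549 minus HCC827 was -0.11 with an interval of -0.58 to 0.37, which includes 0. In A549-vector cells the order per kilobase was VIM, LMNB2, LMNB1, LMNA, PLEC, SYNM and NES, and in HCC827-vector cells it was LMNB1, LMNA, LMNB2, PLEC, SYNM, VIM and NES. With myr-AKT1 the A549 order became VIM, PLEC, LMNA, LMNB2, LMNB1, SYNM and NES, and the HCC827 order LMNA, LMNB2, PLEC, LMNB1, SYNM, VIM and NES. These orders depend on the length used. By the length of the canonical transcript, LMNA was the first of the lamins in all 4 libraries, ahead of LMNB2 and LMNB1 in A549-vector and of LMNB1 in HCC827-vector cells, and in the myr-AKT1 libraries LMNA passed PLEC in A549 cells while LMNB1 passed PLEC and VIM passed SYNM in HCC827 cells. With 1 library per condition, whether neighbours in the orders differ could not be tested.

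Among the filament transcripts of the cytoplasm, keratins outweighed vimentin in all 4 libraries. Of the summed level per kilobase of VIM, NES, SYNM, KRT7, KRT8, KRT18 and KRT19, VIM made up 7.05% in A549-vector and 7.09% in A549-myr-AKT1 cells, and 0.107% and 0.244% in the HCC827 libraries. The keratin pair KRT8 and KRT18 had log2 fold changes of -1.81 and -1.75 in HCC827 cells, and the summed level of these 7 filament genes was 41948 with vector and 19804 with myr-AKT1 there.

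The proteins that work with lamins at the nuclear envelope were taken as a list of 15 genes, all measured in both lines. In the fit, LBR, the lamin B receptor of the inner nuclear membrane, and TMPO, which encodes the lamina-associated LAP2 proteins, fell (log2 fold change -1.44, adjusted p = 0.0277, and -1.58, adjusted p = 0.0270, from limma), and 0 of the 15 rose. Both calls were lost with size factors over all 4 libraries (adjusted p = 0.0554 for either from limma). LBR had 4045 and 1528 normalized counts in A549-vector and A549-myr-AKT1 cells and 3875 and 1393 in the HCC827 libraries. TMPO had 10864 and 2960 in the A549 and 10779 and 4409 in the HCC827 libraries. By the 2-fold threshold, 2 of the 15 were lower (9.86% of all genes) and 2 higher (14.8%) in A549 cells, and 3 lower (12.5%) and 0 higher (14.0%) in HCC827 cells, where the third, beside LBR and TMPO, was SYNE1 (nesprin-1, which joins the nucleus to actin), at -2.76 on the log2 scale. The median was -0.21 in A549 and -0.32 in HCC827 cells. SUN1 and SUN2, which span the nuclear envelope and hold the nesprins, had log2 fold changes of -0.48 and 0.31 in A549 and -0.32 and 0.42 in HCC827 cells.

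The 5 enzymes of lamin maturation, namely the farnesyltransferase subunits FNTA and FNTB, the proteases RCE1 and ZMPSTE24 and the methyltransferase ICMT, stayed within 2-fold in both lines. Their log2 fold changes ran from -0.52 to -0.17 in A549 and from -0.50 to -0.02 in HCC827 cells, and 0 of 5 passed in the fit. The counting interval lay below 0 for 5 of 5 in A549 (36.6% of all genes) and 2 of 5 in HCC827 cells (37.1%). It lay above 0 for 0 of 5 in either line. ICMT had the lowest adjusted p of the 5, 0.355 from limma, with a log2 fold change of -0.47, and 0 of 5 had an unadjusted p under 0.05 in limma, edgeR or DESeq2.

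Proliferation genes were lower in the same libraries as the B-type lamins. Of 12 such genes, 10 fell in the fit, among them the replication helicase genes MCM2 (log2 fold change -2.77, adjusted p = 0.00658 from limma) and MCM7 (-2.38, adjusted p = 0.00959) and the proliferation marker MKI67 (-2.24, adjusted p = 0.0270), and 0 rose. With size factors over all 4 libraries 5 of the 12 passed (MCM2, MCM3, MCM5, MCM7 and TOP2A), and MKI67 did not (adjusted p = 0.0603 from limma). By the 2-fold threshold, 11 of 12 were lower in each line, where 9.86% (A549) and 12.5% (HCC827) of all genes were. The medians of the 12 were -2.88 in A549 and -1.71 in HCC827 cells. Their normalized counts summed to 113103 (vector) and 21604 (myr-AKT1) in A549 and to 85262 and 25540 in HCC827 cells. How far the lower B-type lamins, LBR and TMPO go with these genes was not tested.

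**Figure D4:**
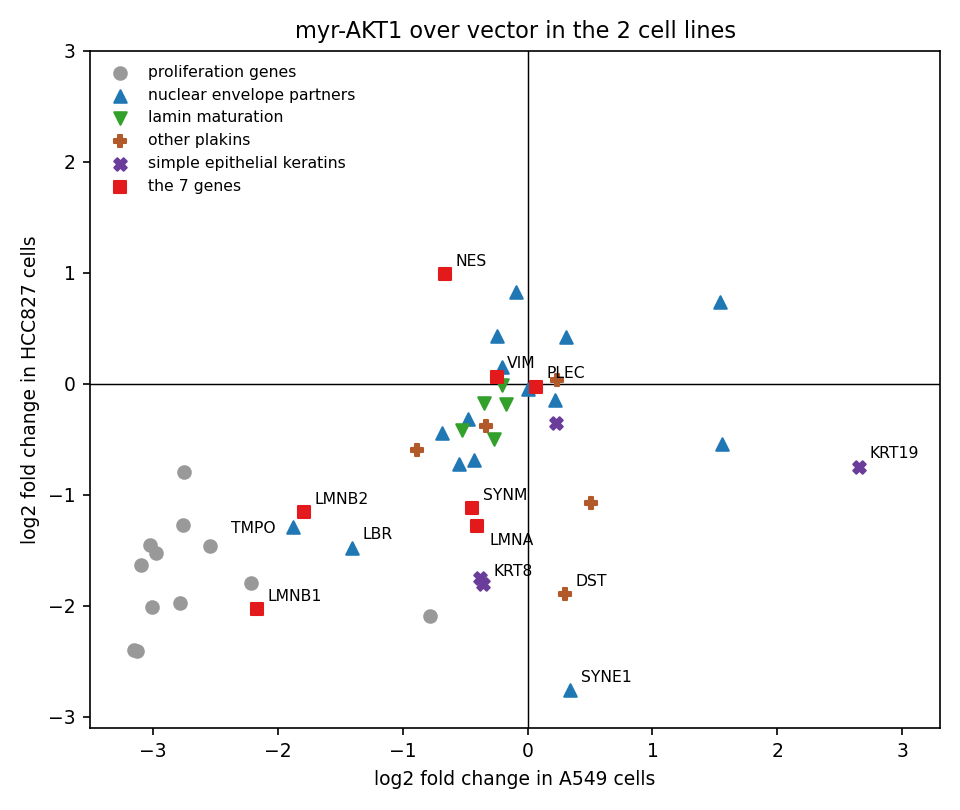
Log2 fold change in A549 (horizontal) against HCC827 cells (vertical), 1 point per gene that passed the filter in both lines. Drawn are the 7 genes (red squares), proliferation genes, nuclear envelope partners, lamin maturation enzymes, other plakins and simple epithelial keratins. The other related lists are not drawn. LMNB1, LMNB2, LBR and TMPO lie at the lower left with the proliferation genes (grey circles), VIM and PLEC near the centre, and SYNE1, DST and KRT19 at the lower right.

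Plectin's relatives and partners lay on either side of 0. Of 6 other plakins, the giant linkers of which DST (dystonin), MACF1 and DSP (desmoplakin) had the most reads, 0 were called in the fit. On the log2 scale DST differed by 0.30 in A549 and by -1.89 in HCC827 cells, DSP had 0.24 and 0.04, and EVPL (envoplakin) had -0.89 and -0.60. Among 4 partners of plectin in hemidesmosomes, the anchors to the basement membrane, COL17A1 had 25.3 and 390 normalized counts in A549-vector and A549-myr-AKT1 cells and 3694 and 4695 in the HCC827 libraries. The integrin subunit genes ITGA6 and ITGB4 had log2 fold changes of -0.42 and 0.85 in A549 and -1.67 and -0.21 in HCC827 cells. None of the 4 was called in the fit.

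Of 12 other non-keratin filament genes, 7 passed the filter in A549 and 2 in HCC827 cells, 0 were called in the fit, and BFSP2 had no read in any library. INA, a neuronal filament gene, had 1482 and 694 reads in A549-vector and A549-myr-AKT1 cells and 6 and 0 in the HCC827 libraries, and its log2 fold change in A549 cells was -0.70 (-0.84 to -0.57). SYNC (syncoilin) was 2.03-fold higher in A549-myr-AKT1 cells, with 301 against 194 reads. By the 2-fold threshold, 2 of the 7 measured in A549 cells were higher (14.8% of all genes) and 0 lower (9.86%). The counting interval lay above 0 for 5 of these 7 (33.1% of all genes) and below 0 for 1 (36.6%), with a median of 0.68. Of the 2 measured in HCC827 cells, 0 were past 2-fold in either direction (14.0% of all genes higher, 12.5% lower).

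Of 11 kinases and turnover factors that act on filaments, 2 fell in the fit (1.73% of all genes) and 0 rose (1.29%). These were the mitotic kinase genes CDK1 and PLK1 (log2 fold change -1.83, adjusted p = 0.0349, and -2.09, adjusted p = 0.0443, from limma), and both serve the cell division cycle. Both calls were lost in edgeR's quasi-likelihood test (adjusted p = 0.0546 and 0.0684) and with size factors over all 4 libraries (0.0727 and 0.0888 from limma). AURKB, another mitotic kinase gene of this list, was 8.47-fold lower in A549-myr-AKT1 and 2.11-fold lower in HCC827-myr-AKT1 cells. It was not called by limma (adjusted p = 0.0575) but was by DESeq2's Wald test (adjusted p = 0.0193). TRIM16, a ubiquitin ligase gene, had log2 fold changes of -0.10 in A549 and 1.36 in HCC827 cells, and its reads are uncertain, since a near-identical copy, TRIM16L, exists. PAK1 had 0.05 and 0.66, and ROCK2 -0.11 and -1.55.

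The genes whose profile over the 4 libraries came closest to each of the 7 were sought among 12544 genes with a mean of at least 100 normalized counts, by the Euclidean distance between mean-centred log2 profiles. For LMNB1 they were H2AC25, CDC7 and ZGRF1 (distances 0.08, 0.32 and 0.33), and 21 genes lay within a distance of 0.5. For LMNB2 they were NCAPD2, C10orf88B and CCDC150 (0.16 to 0.20), with 102 genes within 0.5. LMNA lay closest to UTP14A (0.06) and SYNM to ZDHHC17 (0.08), with 309 and 342 genes within 0.5. VIM had 6 genes within 0.5, led by ASB4, GLDC and OLFML3 (0.35 to 0.46), NES had 124, led by HCFC1 (0.15), and PLEC had 1139, led by CCDC174 (0.01). With 4 libraries these distances describe the libraries and nothing further.

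Few reads were assigned to genes that overlap these. The antisense gene VIM-AS1 had 53 (vector) and 31 (myr-AKT1) reads in A549 and 4 and 3 in HCC827 cells, and the 2 antisense genes within SYNM had at most 7 reads in a library.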

How the data were processed

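RNA from 4 cultures of vector-control or myr-AKT1-transduced A549 and HCC827 cells was sequenced with strand-specific libraries, 1 per condition. The methods describe poly(A) selection, whereas per the labels ribosomal RNA was depleted. Reads were trimmed and masked by the authors, mapped to hg38 with Bowtie2 and summed per Ensembl gene with HTSeq. The strand setting of the counting is not given in the sources used here. RPKM is the unit the methods name, but the deposited signal holds counts over a library-wide size factor (vector 1.15 and myr-AKT1 0.873 in A549, 1.26 and 0.795 in HCC827). Dividing by the worth of 1 read gave whole reads (within 0.001) for all genes with reads in both myr-AKT1 libraries, for 26983 of 26984 in A549-vector and for 25879 of 25880 in HCC827-vector.

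Names and positions came from GENCODE release 44 (GRCh38), which matched 60261 of 60558 identifiers. Log2 fold changes within a line used the deposited values without a pseudocount, and counts of genes were taken over those averaging 10 or more normalized counts with reads in both libraries. No p-value was computed within a line. The fit across lines used limma 3.58.1 with a mean-variance trend, on genes kept by edgeR's filterByExpr. It was set up because the values are not plain counts, and edgeR 4.0.16 and DESeq2 1.42.0 on recovered reads were alternatives. Its p-values rest on the spread between 2 lines, moderated by the variance of all genes in limma's empirical Bayes step. Most of the 7.77 total degrees of freedom came from that step, and 1 was residual. The fits and the recovery of reads were run on simulated data as a check of the code. Planted changes were equal in both lines, and the recovery was rerun on reads already recovered. Neither shows how well lines that differ, or the deposited values, are handled. Upstream sequences came from RefSeq windows (GRCh38.p14) for 6 of the 7 genes, by symbol. The window of LMNA starts 7995 bases from the canonical start and was not used. The 7 genes, the lists and the named genes (the 7, the lists, overlapping genes, label checks and the 3 closest profiles each) were chosen with earlier results of these data known. A gene of the related lists is not reported here by name or among the genes compared between lines in the closing section. Software was R 4.3.3, Python 3.11.15, numpy 2.4.6, scipy 1.17.1, pandas 2.3.3 and matplotlib 3.10.9.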

Additional observations from a re-analysis of the deposited data

Results flagged for a closer look

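Of 75 genes compared (the 7 genes and the related lists), 12 lay on opposite sides of 0 in A549 and HCC827 cells by log2 fold change, each beyond its counting interval. With 1 library per condition, this difference was not tested. Only genes that passed the filter in both lines could be counted, and some of the 75 did not. The share of all genes on opposite sides was not computed, so the count is not read as a trait of these genes. Beyond counting error, 33.1% of all genes lay above 0 and 36.6% below in A549 cells, and 33.4% and 37.1% in HCC827 cells. NES was the only one of the 7 genes among the 12, with -0.66 in A549 and 0.98 in HCC827 cells, from 39 to 90 reads per library. The plakin genes DST and PPL had 0.30 and 0.51 in A549 cells and -1.89 and -1.07 in HCC827 cells. At the nuclear envelope, SYNE1 had 0.34 and -2.76, EMD -0.25 and 0.43, TOR1AIP1 -0.21 and 0.15, and TOR1AIP2 0.22 and -0.15. The keratin genes KRT19 and KRT7 had 2.65 and 0.23 in A549 cells and -0.75 and -0.35 in HCC827 cells. ITGB4 had 0.85 and -0.21, IFFO2 0.87 and -0.16, and TRIM16 -0.10 and 1.36. Under TMM, total reads and size factors over all 4 libraries, 11 of the 12 kept opposite signs, TRIM16 being the exception, and 8 stayed beyond their counting intervals in both lines. For NES and EMD the A549 interval included 0 with size factors over all 4 libraries (upper bounds 0.01 and 0.06), for IFFO2 the HCC827 interval did so with these and with total reads, and for TRIM16 the A549 interval did so with these and with TMM.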

How the results depend on the processing

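With 1 culture per condition, counting error is the only error known within a line. With size factors over all 4 libraries, log2 fold changes in A549 cells moved past their counting error to -0.15 for VIM, -0.30 for LMNA, -1.69 for LMNB2 and 0.17 for PLEC, and with total reads those in HCC827 cells moved to -1.20 for LMNA and 0.05 for PLEC. PLEC in HCC827 cells, whose interval includes 0, was the only one of the 7 to change sign under a scaling. The median of all genes was -0.04 in A549 cells and 0.07 with those size factors. In the fit, limma with a pseudocount of 0.1 called 0 genes higher and 0 lower (3184 at an unadjusted p under 0.05), and without the cell line block 0 and 0 (631 at an unadjusted p under 0.05), so that 0 of the 7 genes were called in either. Size factors over all 4 libraries gave 60 higher and 101 lower genes and 1 of the 7, LMNB1. DESeq2's Wald test gave 621 and 518, and keeping every gene seen in any library gave 1101 and 894, with LMNA added to the 7 genes' calls (adjusted p = 0.0325 from limma). In this last setting limma had 33060 total degrees of freedom, against 7.77 in the main fit. A gene's own spread between the lines then counted for almost nothing. The lowest adjusted p of LMNB1 and of LMNB2 came from this setting. EdgeR's quasi-likelihood test called 196 and 228, with 1 of the 7, LMNB1. The adjusted p of LMNB1 ranged from 1.17e-09 to 1 and that of LMNB2 from 1.50e-05 to 1 over the alternatives. With reads in both libraries as the only filter, 4433 genes were 2-fold higher and 3009 lower in A549 cells, and 3974 higher in HCC827 cells, against 2769, 1843 and 2415. With a mean of at least 50 they were 1570 and 1103 in A549, and 1341 and 1348 in HCC827 cells, the last against 2157. The lengths of canonical transcripts, chosen after seeing the data, moved the shares of LMNA and VIM, and a pseudocount of 1 read moved no ratio between the genes past its interval. The fit paired the libraries by cell line, and the labels give no replicate numbers for another pairing. Without NES, whose A549 interval then included 0, 5 of the 7 genes were below vector in A549 cells with size factors over all 4 libraries.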

Other observations

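Some markers of other cell types were higher in A549-myr-AKT1 cells. Of 13 stromal, endothelial and leukocyte genes, 8 passed the filter in A549 cells and 7 of them were past a 2-fold increase (14.8% of all genes). In HCC827 cells 4 passed and 2 were past it (14.0% of all genes). COL1A1, a fibrillar collagen gene, rose in the fit (log2 fold change 2.64, adjusted p = 0.0381 from limma, and 0.0636 with size factors over all 4 libraries), with 88 and 668 reads in A549-vector and A549-myr-AKT1 cells and 56 and 142 in the HCC827 libraries. COL1A2, which pairs with COL1A1 in type I collagen, had no read in any library, and LUM had 26 and 304 reads in A549 and 1 and 1 in HCC827 cells. The endothelial cadherin gene CDH5 had 1 and 59 reads in the A549 libraries, and the leukocyte gene PTPRC had at most 7 reads in a library.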
